A study of Mus musculus with 6 samples.

Results

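Interferon-stimulated genes are the genes that cells switch on when interferon binds its receptor. A list of 37 of them was followed by gene symbol through 6 mouse libraries, and all 37 were found among the 42256 genes of the count table. The RNA came from PDGFRa+ cells, a fraction sorted by flow cytometry that is rich in cardiac fibroblasts, taken from infarct scar 7 days after injury in mice of mixed 129S2/C57Bl6 background. The 2 control libraries came from Htr2bfl/fl mice, in which the serotonin receptor gene Htr2b is flanked by loxP sites and no Cre is carried. The 4 Htr2b_cKO libraries came from Htr2bfl/flPostnMCM/+ mice, which carry the same floxed gene and 1 copy of Postn, a gene of activated fibroblasts, that drives a Cre recombinase active under tamoxifen. Mice of both groups ate tamoxifen chow from 1 week before injury until the hearts were taken. The Cre acts in cells that use the Postn promoter, while the sort was on PDGFRa, so a library can hold cells in which the gene was not deleted. No control carried the Cre, so effects of the Cre, of its Postn allele and of loss of Htr2b cannot be told apart. The labels used here give no ages for the mice.

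Type I interferons bind a receptor built from IFNAR1 and IFNAR2, whose kinases JAK1 and TYK2 act on STAT2. With IRF9, STAT2 is part of the complex ISGF3, which binds the interferon-stimulated response element (ISRE) in the promoters of its targets. Interferon gamma acts through its own receptor, and its targets carry gamma-activated sites (GAS). The products include sensors of foreign RNA and DNA, enzymes that block viral replication, and factors such as IRF7 that feed back on interferon production. In the injured heart, such genes have been described in macrophages and in subsets of fibroblasts.

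The promoters of the listed genes were searched for the letters of these elements, and 6 are shown here because they cover genes with several ISRE matches, 1 with both kinds of match and 1 with only a GAS match. RefSeq windows on GRCm38.p6 (250 bases before to 50 after an annotated start) were matched for 27 of the 37 genes, 32 windows in all. The motifs searched on both strands were GAAANNGAAA (TTTCNNTTTC on the other strand) for the ISRE and TTCNNNGAA for the GAS. Capitals mark the matches, and each sequence runs 5′ to 3′ on the strand of its gene. The windows lie at chr4:156200769-156201068 (minus strand) for Isg15, chr19:34640639-34640938 (plus) for Ifit1, chr19:34583279-34583578 (plus) for Ifit3, chr19:34607707-34608006 (plus) for Ifit3b, chr5:120907476-120907775 (minus) for Oas1a and chr11:53769764-53770063 (plus) for the first of 2 starts of Irf1.
Isg15: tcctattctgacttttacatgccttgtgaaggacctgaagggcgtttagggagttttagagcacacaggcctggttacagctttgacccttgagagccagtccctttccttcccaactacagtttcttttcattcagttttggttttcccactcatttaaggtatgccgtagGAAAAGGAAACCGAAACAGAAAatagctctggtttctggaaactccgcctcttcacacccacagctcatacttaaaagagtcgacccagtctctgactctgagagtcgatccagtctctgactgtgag
Ifit1: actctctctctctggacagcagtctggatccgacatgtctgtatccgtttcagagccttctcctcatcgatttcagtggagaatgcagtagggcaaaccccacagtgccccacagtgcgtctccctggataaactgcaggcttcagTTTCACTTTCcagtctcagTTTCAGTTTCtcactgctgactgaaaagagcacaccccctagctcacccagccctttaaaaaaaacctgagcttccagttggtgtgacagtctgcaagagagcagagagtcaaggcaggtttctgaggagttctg
Ifit3: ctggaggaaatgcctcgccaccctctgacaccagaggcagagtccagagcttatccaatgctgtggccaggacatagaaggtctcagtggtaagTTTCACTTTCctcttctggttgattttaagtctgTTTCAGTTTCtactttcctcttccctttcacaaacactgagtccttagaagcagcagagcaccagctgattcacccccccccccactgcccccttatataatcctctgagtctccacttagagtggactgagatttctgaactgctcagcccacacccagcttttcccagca
Ifit3b: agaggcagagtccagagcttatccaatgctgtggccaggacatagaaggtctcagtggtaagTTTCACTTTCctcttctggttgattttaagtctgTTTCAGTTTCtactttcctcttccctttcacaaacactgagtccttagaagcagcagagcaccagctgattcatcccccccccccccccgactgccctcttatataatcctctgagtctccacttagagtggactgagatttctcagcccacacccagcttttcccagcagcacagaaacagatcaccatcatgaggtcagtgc
Oas1a: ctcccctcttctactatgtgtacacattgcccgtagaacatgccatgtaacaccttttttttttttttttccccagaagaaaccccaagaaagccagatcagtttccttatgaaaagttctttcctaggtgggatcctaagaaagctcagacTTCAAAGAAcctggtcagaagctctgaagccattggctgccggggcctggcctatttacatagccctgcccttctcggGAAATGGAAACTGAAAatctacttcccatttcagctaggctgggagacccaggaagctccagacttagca
Irf1: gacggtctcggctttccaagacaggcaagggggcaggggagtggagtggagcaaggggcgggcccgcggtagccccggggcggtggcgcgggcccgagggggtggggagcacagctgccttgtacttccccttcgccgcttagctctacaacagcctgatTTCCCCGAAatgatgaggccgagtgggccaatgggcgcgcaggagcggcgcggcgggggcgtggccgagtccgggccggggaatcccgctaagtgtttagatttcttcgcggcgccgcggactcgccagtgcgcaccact

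An ISRE match was found for 16 of the 27 genes, in 17 windows, or 53.1% of the windows, against 3.44% of 32851 windows of the same length over all genes. A GAS match was found for 7 genes, in 21.9% of the windows, against 8.3% of all windows. In Isg15 3 ISRE matches overlapped, at positions -78, -72 and -66, where 0 is the first base of the transcript. Ifit1 had matches at -104 and -85, Ifit3 at -156 and -122, and Ifit3b at -188 and -154. Oas1a had ISRE matches at -20 and -14 and a GAS match at -98. Irf1 had a single GAS match at -90 and no ISRE match, and the window of Irf7 held neither motif. In Bst2 a GAS match and ISRE matches shared bases. These are matches of letters in a window and not measured binding. Usp18, Rtp4, Mx1, Ifi27l2a, Zbp1, Parp9, Mx2, Dhx58, Parp14 and Oas2 had no matched window.

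**Figure D1:**
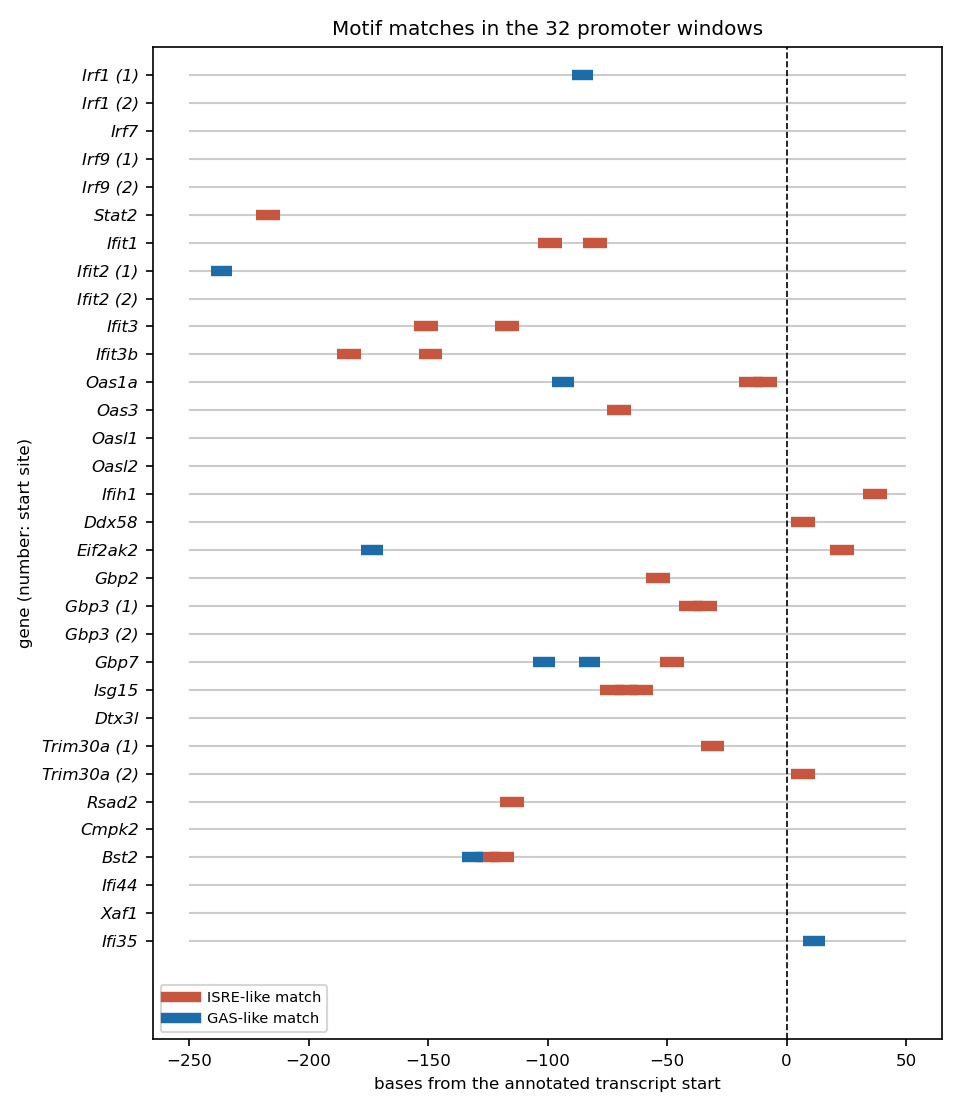
Positions of ISRE-like and GAS-like matches in the 32 promoter windows, with bases from the annotated transcript start on the x axis and 1 line per start site on the y axis. Matches of the ISRE letters lie in 17 windows and matches of the GAS letters in 7.

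The libraries held 28533427 to 37392496 estimated counts, and a count of 0 allows up to 0.0781 to 0.108 CPM (counts per 1000000, on TMM-scaled library sizes), for counting error only. Counts for Htr2b gave 0.338 and 0.253 CPM in controls against 0, 0.0904, 0.876 and 0.119 CPM in Htr2b_cKO 1 to 4. The third of these, from 29 counts against 13 and 7 in controls, is above both controls and goes against its label. That library is therefore called the library labelled Htr2b_cKO 3 throughout. With so few counts (log2 fold change -0.11, SE 1.18), Htr2b cannot settle whether a label is wrong. Gene-level counts cannot check whether a floxed exon is gone. Htr2b_cKO 4 was the only library with little Xist (0.267 CPM, against 385 to 770 CPM) and with a high sum over 4 Y-linked genes (139 CPM, against at most 0.483 CPM). In keeping with the sort, 9 fibroblast markers had high sums in every library. They ran from 79311 CPM in the library labelled Htr2b_cKO 3 to 131278 CPM in Htr2b_cKO 4. Markers of other cells were present, and no marker of the 9 lists was at 0 in all 6 libraries. In bulk RNA, fewer cells of a type and less RNA per cell cannot be told apart.

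No interferon-stimulated gene passed the test of Htr2b_cKO against control. Of the 37 genes, all with enough counts to be tested, 0 were called by edgeR's quasi-likelihood test (adjusted p of 0.462 to 0.992). Over all 15840 genes tested, 3 were called, or 0.0189%. At an unadjusted edgeR p under 0.05 there were 3 genes, all lower in Htr2b_cKO (Irf7, Zbp1 and Oas1a), where 2.99% of all genes tested were lower and 6.6% higher at that level. DESeq2 and limma voom also called 0 of the 37, each with 3 genes at an unadjusted p under 0.05. For DESeq2, limma voom and the fits that leave out a library, the share of all genes tested at that level is not given. Of all genes tested, edgeR called 1 when control 1 was left out, 6 without control 2 and 8 without Htr2b_cKO 4. The count of listed genes lower at an unadjusted p under 0.05 was 0 when control 1, control 2 or Htr2b_cKO 1 was left out, 1 without Htr2b_cKO 2 or Htr2b_cKO 4, and 16 in the absence of the library labelled Htr2b_cKO 3.

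The log2 fold changes (Htr2b_cKO minus control) ran from -0.60 for Irf7 to 0.46 for Ifit2, with a median of -0.25. They were below 0 for 30 genes, 81.1% of the list, against 50% of all genes tested, whose median was -0.0001. The median of the list was -0.13 without Htr2b_cKO 2, -0.43 when the library labelled Htr2b_cKO 3 was left out, and -0.24 without Htr2b_cKO 4. The 7 above 0 were Irf1, Ifit2, Ifih1, Eif2ak2, Mx1, Gbp7 and Trim30a. Each Htr2b_cKO library lay below both controls for 4 genes (Irf7, Oasl2, Dhx58 and Zbp1), or 10.8% of the list, against 8.98% of all genes tested. No gene of the list had each Htr2b_cKO library above both controls, which 10.6% of all genes tested had. With 2 against 4 libraries, the smallest p a permutation of labels could give is 0.0667. The pair of control libraries limits the precision of each of these values.

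**Figure D2:**
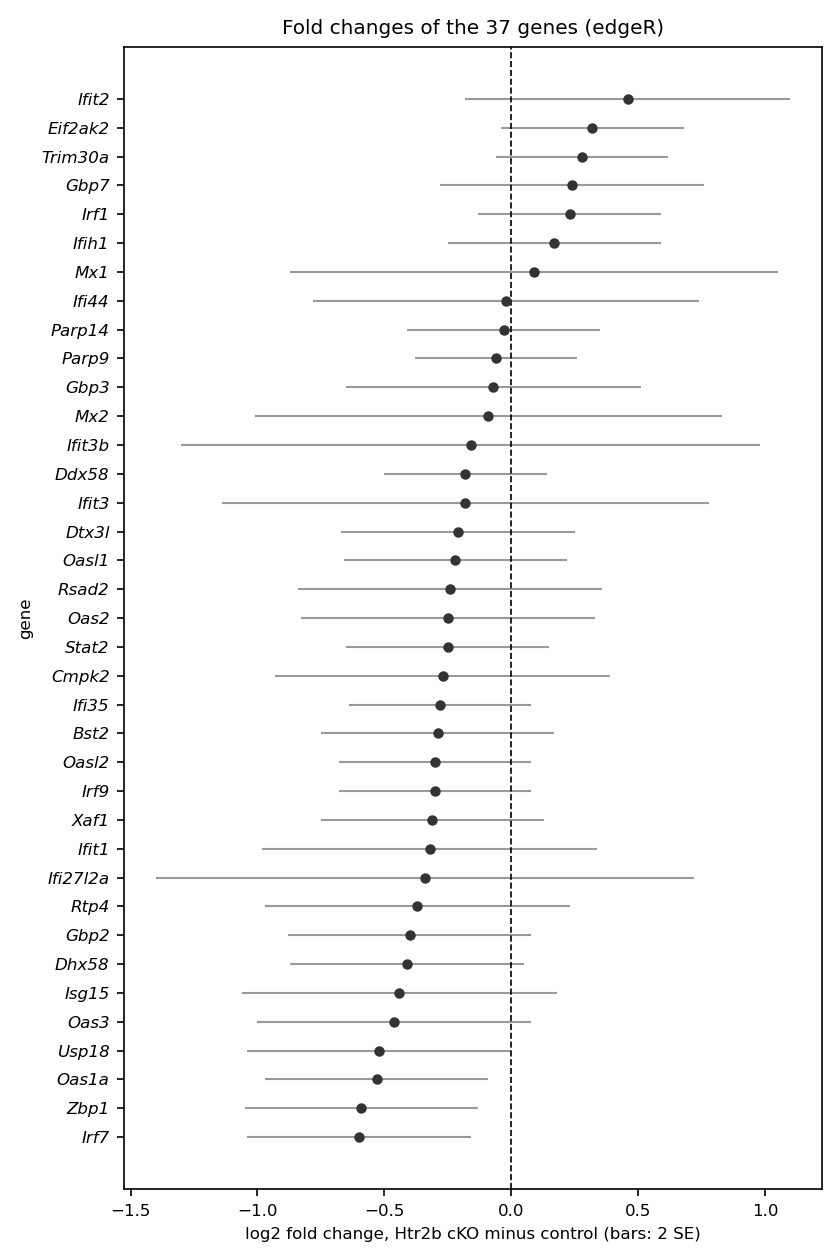
Log2 fold change of each of the 37 genes, Htr2b_cKO minus control, from edgeR on the x axis, with bars of 2 SE on either side. The points run from -0.60 to 0.46, 30 lie below 0, and none of the 37 passed the test.

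The 4 Htr2b_cKO libraries were not alike. The genes varied together from library to library, and the order of the libraries cut across the genotypes. For each gene the deviation of a library from the gene's mean was taken on the log2(CPM + 0.5) scale. The median deviation over the 37 genes was 0.20 and 0.22 in the control libraries. It was -0.36 in Htr2b_cKO 1 and -0.42 in Htr2b_cKO 2, but 0.31 in the library labelled Htr2b_cKO 3 and 0.03 in Htr2b_cKO 4. The within-group SD of this median was 0.30.

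The library labelled Htr2b_cKO 3 held the highest value of 19 of the 37 genes and the lowest of 0, and stood above the gene's mean for 36. Htr2b_cKO 2 held the lowest value of 19 genes and Htr2b_cKO 1 of 10. Over all genes tested these libraries held the highest value for 20.1% (the library labelled Htr2b_cKO 3), and the lowest for 12.6% and 19.8% (Htr2b_cKO 2 and 1). Htr2b_cKO 1 and 2 were the lowest pair for 22 genes, 59.5% of the list against 7.65% of all genes tested.

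Set against the controls, Htr2b_cKO 1 lay below both for 28 of the 37 genes (38.2% of all genes tested), Htr2b_cKO 2 for 30 (34.6%), Htr2b_cKO 4 for 20 (36.7%) and the library labelled Htr2b_cKO 3 for 5 (34.8%). The last lay above both controls for 24 genes, or 64.9%, against 36.6% of all genes tested. For 27 genes Htr2b_cKO 1 and 2 were both below both controls, 73% of the list against 21.4% of all genes tested. The summed CPM of the list was 2881 and 3018 in control libraries and 2133, 2032, 3310 and 2556 in Htr2b_cKO 1 to 4, so the highest and the lowest sums were both in the Htr2b_cKO group. Without the library labelled Htr2b_cKO 3 the median log2 fold change was -0.43. At an unadjusted edgeR p under 0.05, 16 genes were then lower and 0 higher, and still 0 were called (lowest adjusted p = 0.176, Irf7). The share of all genes tested at that level in this fit is not given, so the 16 cannot be set against it. That library held the highest value of 19 of the 37 genes, so lower values without it follow in part from the choice.

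**Figure D3:**
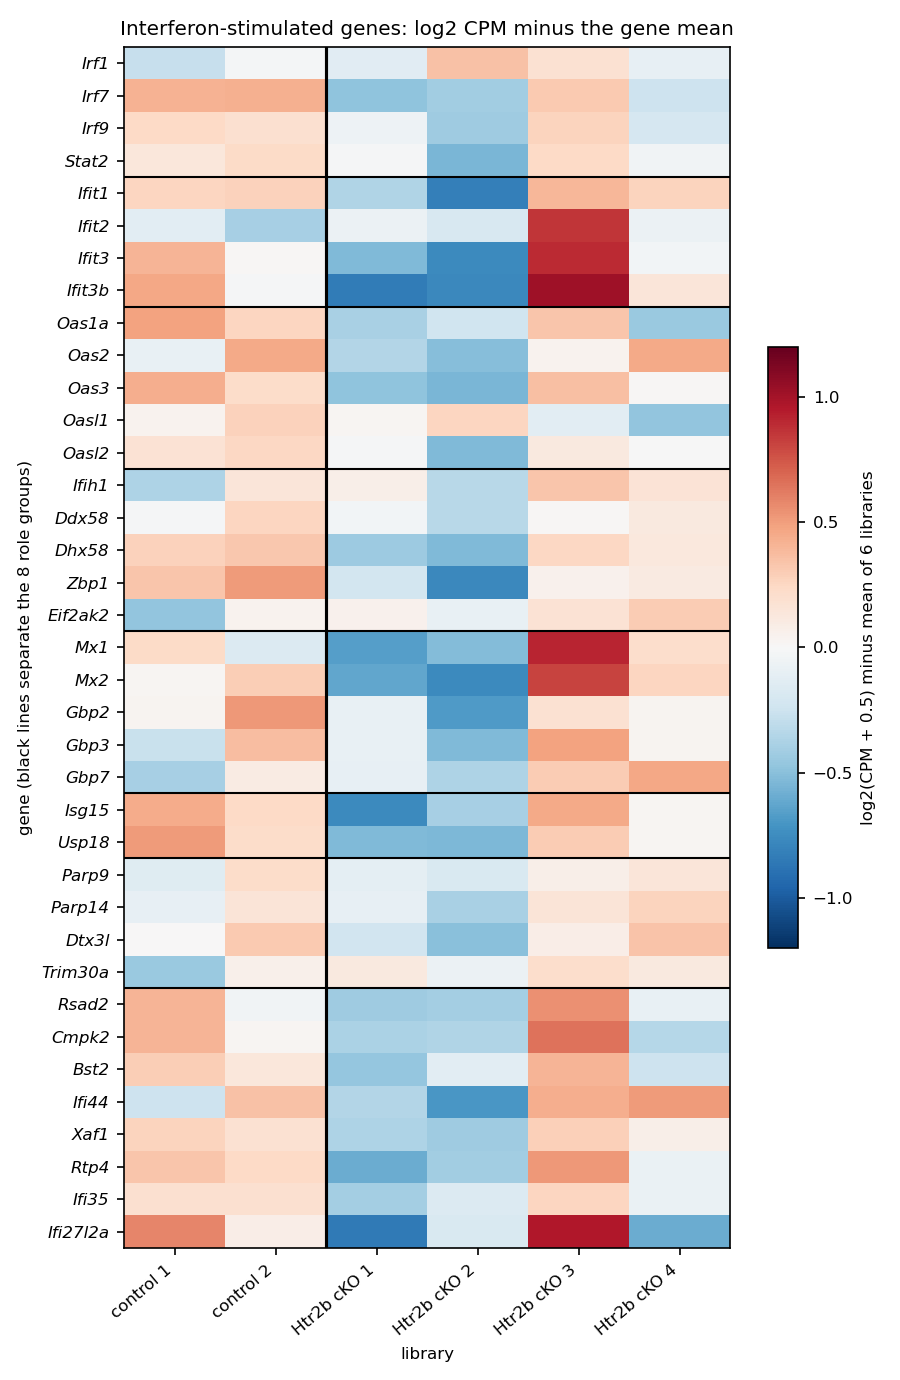
Heat map of log2(CPM + 0.5) minus the gene's mean over the 6 libraries, with libraries on the x axis and the 37 genes, in 8 role groups, on the y axis. Htr2b_cKO 1 and 2 are below the mean for most genes, while the library labelled Htr2b_cKO 3 is above it for 36 of 37.

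Over the 666 pairs of listed genes, the median Pearson correlation across the 6 libraries was 0.62, and 85.1% of pairs were above 0. Over all pairs of genes tested the median was 0.00, with 49.9% above 0. With each group's mean subtracted the listed genes had a median of 0.67 and 89.6% above 0, so the genes also varied together within the groups. The median Spearman correlation was 0.60. Without Htr2b_cKO 1 and 2, the libraries farthest from the median deviation, the median Pearson correlation over the other 4 was 0.30, with 63.7% of pairs above 0, so the correlation rests in part on that pair. All pairs share the same 6 libraries and their depth, and genes are not independent replicates, so no p is given.

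The correlation varied by role. Its median was 0.89 among the 8 other antiviral effectors and 0.77 in the IFIT family, but 0.46 in the OAS family and 0.26 among the transcription factors. Isg15 and Usp18 had 0.96. Oas3 was the gene most like the rest, with a median of 0.81 with the other 36, followed by Dhx58, Ifit1 and Xaf1 at 0.80. Oasl1 (-0.25), Irf1 (-0.16), Trim30a (-0.01) and Eif2ak2 (0.01) were the least like it.

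Markers of other cells also differed between these libraries. The sum over 10 macrophage markers was 2875 and 987 CPM in control libraries and 940, 2397, 4509 and 522 CPM in Htr2b_cKO 1 to 4. It was highest in the library labelled Htr2b_cKO 3, as the interferon-stimulated genes were, but Htr2b_cKO 2, among the lowest for these genes, had more of it than control 2. The sum over 6 B and plasma cell markers was 1174 and 1186 CPM in control libraries against 178, 161, 303 and 983 CPM. Those over 6 endothelial markers were 235 and 46.6 CPM against 88.1, 50.7, 72.8 and 44.1 CPM. The 4 plasmacytoid dendritic cell markers other than Bst2 gave 127 and 114 CPM against 171, 130, 183 and 129 CPM. That sum was carried mostly by Tcf4, at 91.9 to 151 CPM, which is not limited to these cells. Irf8 was at 34.6 and 21.8 CPM in control libraries against 19.8, 26.7, 46.8 and 8.67 CPM. Siglech and Ccr9 were at no more than 0.843 and 0.753 CPM in any library. Sums over 6 neutrophil markers lay between 27.6 and 104 CPM, over 5 mural markers between 40.8 and 107 CPM, over 5 cardiomyocyte markers between 8.89 and 32.4 CPM, and over 8 T and NK markers between 1.35 and 6.07 CPM. The part of these cells in the levels of the listed genes was not tested.

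**Figure D4:**
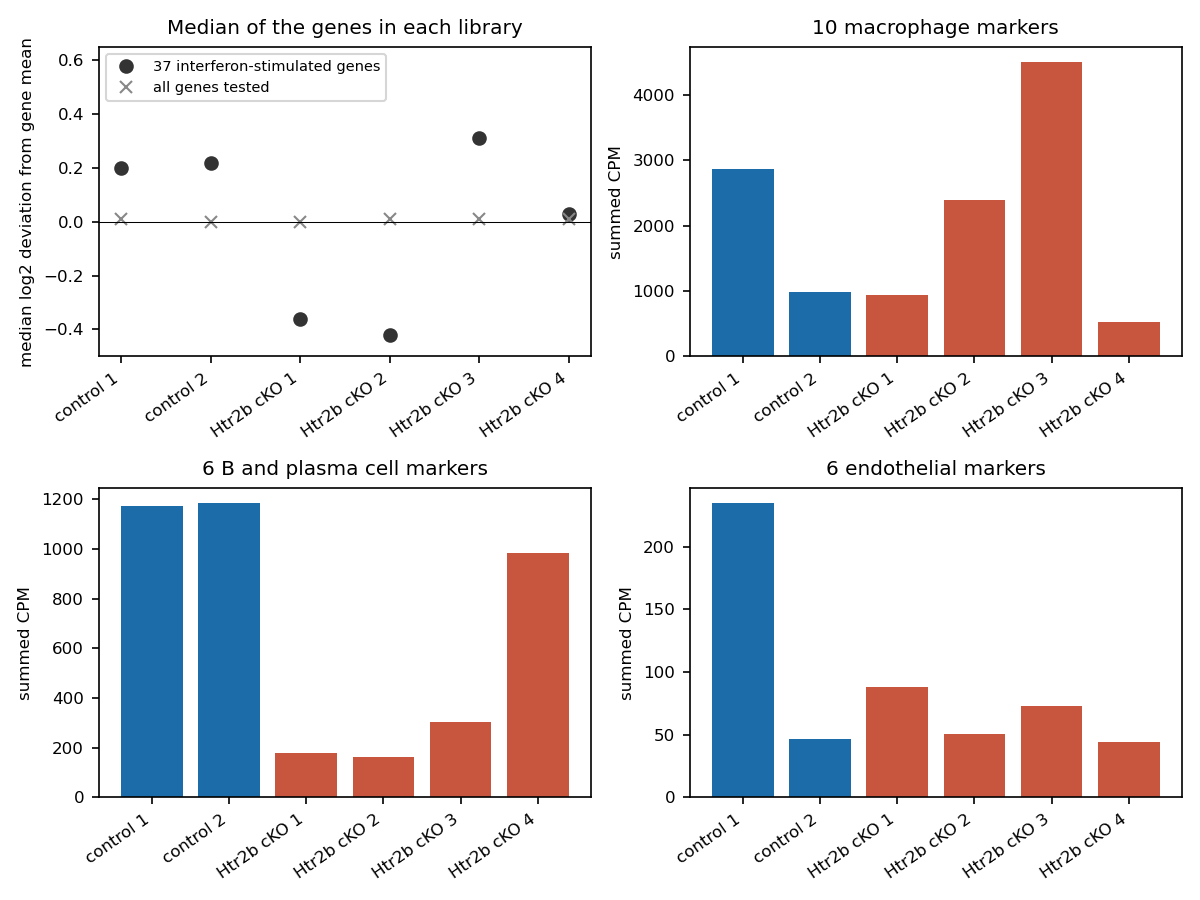
Top left, median log2 deviation from the gene mean in each library for the 37 listed genes (dots) and all genes tested (crosses); other panels, summed CPM of 10 macrophage, 6 B and plasma cell and 6 endothelial markers by library. The listed genes are at -0.42 to 0.31, and the macrophage sum is highest, at 4509 CPM, in the library labelled Htr2b_cKO 3.

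Among the transcription factors, Irf7, Irf9 and Stat2 had fold changes below 0 and Irf1 above it. IRF7 is the factor that amplifies production of type I interferon, and its gene (ENSMUSG00000025498, chr7:141262706-141266481 in mm10, minus strand) is itself interferon-induced. Irf7 stood at 329 and 332 CPM in control libraries and at 176, 184, 306 and 208 CPM in Htr2b_cKO 1 to 4. The controls agree closely, each Htr2b_cKO library is below them, and the library labelled Htr2b_cKO 3 is the nearest. The means were 331 ± 1.64 (SD, n = 2) and 218 ± 59.6 CPM (SD, n = 4), with a log2 fold change of -0.60 (SE 0.22, 2 SE from -1.04 to -0.15, edgeR adjusted p = 0.462).

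The ISGF3 genes were closer to the controls. Irf9 was at 76.4 and 73.9 CPM in control libraries and at 61.8, 47.9, 77.7 and 56.1 CPM in Htr2b_cKO libraries. Stat2 was at 83.5 and 89.1 against 74.9, 51.8, 89.7 and 73.5 CPM. In both genes the library labelled Htr2b_cKO 3 was the highest of all 6. Irf1, whose product responds mainly to interferon gamma and inflammatory signals, was at 149 and 177 against 164, 231, 205 and 168 CPM. The groups overlap in Irf1, and its highest value was in Htr2b_cKO 2, the library that was lowest for 19 of the other genes.

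**Figure D5:**
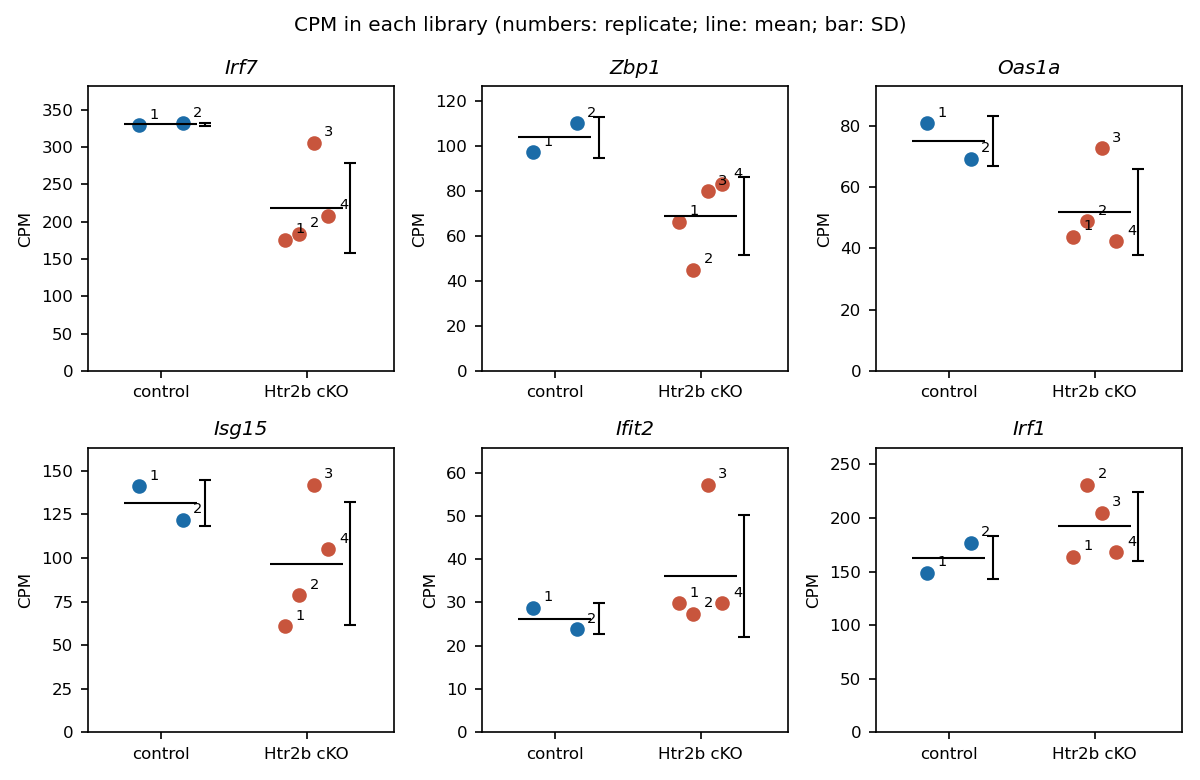
CPM (y axis) of Irf7, Zbp1, Oas1a, Isg15, Ifit2 and Irf1 in the 2 control and 4 Htr2b_cKO libraries, numbered by replicate, with the mean as a line and the SD as a bar. In Irf7 the Htr2b_cKO libraries lie at 176 to 306 CPM, below controls of 329 and 332 CPM, while Ifit2 and Irf1 overlap between groups.

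Of the IFIT proteins, IFIT1 binds foreign RNA that lacks the cap methylation of host messages. The 4 listed IFIT genes lie together on chromosome 19. Ifit3 (chr19:34583531-34588731), the most abundant by CPM, was at 133 and 101 CPM in control libraries and at 69.2, 58.7, 187 and 98.1 CPM in Htr2b_cKO libraries. The groups overlap, with the highest and the lowest value both in the Htr2b_cKO group. Ifit3 had a log2 fold change of -0.18 (SE 0.48, edgeR adjusted p = 0.928). This value was 0.03 when control 1 was left out, -0.36 for control 2, -0.03 for Htr2b_cKO 1, 0.01 for Htr2b_cKO 2 and -0.63 for the library labelled Htr2b_cKO 3. Ifit3b followed the same order of libraries, at 31.7 and 22.6 against 12.5, 13.1, 46.5 and 25.3 CPM for Htr2b_cKO 1 to 4. The transcripts of Ifit3 and Ifit3b were 97.8% identical over 1700 bases, so the split of reads between them is uncertain.

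Ifit1 was at 80.7 and 82.0 CPM in control libraries and at 52.4, 38.0, 89.0 and 81.3 CPM. Ifit2 (chr19:34550694-34576419) behaved otherwise, at 28.8 and 23.8 CPM against 29.9, 27.4, 57.2 and 29.9 CPM. The library labelled Htr2b_cKO 3 stands alone, and the other Htr2b_cKO values lie at 27.4 to 29.9 CPM, beside control 1. Ifit2 had a log2 fold change of 0.46 (SE 0.32, edgeR adjusted p = 0.68), and of 0.16 when that library was left out.

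All 5 genes of the OAS family had a fold change below 0, with a median of -0.30. The OAS enzymes make the signal that activates RNase L on sensing double-stranded RNA, while the OAS-like protein of Oasl1 restrains translation of IRF7. Oas1a (chr5:120896256-120907521) was at 80.8 and 69.2 CPM in control libraries and at 43.8, 48.8, 72.6 and 42.3 CPM in Htr2b_cKO libraries. Only the library labelled Htr2b_cKO 3 reached the control range. The means were 75.0 ± 8.19 (SD, n = 2) and 51.9 ± 14.1 CPM (SD, n = 4), a log2 fold change of -0.53 (SE 0.22, edgeR adjusted p = 0.51). Reads could be shared with Oas1g, 97.6% identical over 1861 bases.

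Oasl2 (chr5:114896936-114912234), the most abundant of the family by CPM, was at 188 and 198 CPM in control libraries and at 165, 115, 181 and 166 CPM in Htr2b_cKO libraries. The groups do not overlap, at a log2 fold change of -0.30 (SE 0.19, edgeR adjusted p = 0.643) that was -0.17 without Htr2b_cKO 2 and -0.18 with the authors' factors. Oas3 was at 24.9 and 21.3 against 12.9, 12.3, 23.6 and 18.4 CPM. In Oas2 the highest value was in Htr2b_cKO 4, with 35.4 and 51.8 against 29.3, 26.2, 38.8 and 51.9 CPM. Oasl1 kept another order of libraries, at 19.1 and 22.6 against 18.8, 22.3, 17.0 and 13.2 CPM, with the library labelled Htr2b_cKO 3 among the lowest.

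The sensors split by gene. ZBP1 detects Z-form nucleic acid and can start necroptosis, a lytic cell death. Its gene (chr2:173206612-173218923) was at 97.3 and 110 CPM in control libraries and at 66.3, 45.0, 79.9 and 83.1 CPM in Htr2b_cKO libraries. Here the library labelled Htr2b_cKO 3 was also below both controls, and the groups do not overlap. The means were 104 ± 8.91 (SD, n = 2) and 68.6 ± 17.3 CPM (SD, n = 4), with a log2 fold change of -0.59 (SE 0.23, edgeR adjusted p = 0.475). Dhx58, which encodes LGP2, a regulator of RIG-I signalling, was at 38.1 and 39.4 against 23.1, 21.7, 37.4 and 34.4 CPM, also without overlap.

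The RNA sensors proper were nearer the controls. Ddx58, the gene of RIG-I, was at 73.2 and 88.1 against 71.9, 58.4, 74.3 and 80.0 CPM. Ifih1, the gene of MDA5, was at 38.7 and 55.6 against 52.6, 39.9, 63.2 and 56.2 CPM. Eif2ak2, which encodes PKR, the kinase that halts translation on double-stranded RNA, was at 48.9 and 70.2 against 70.6, 64.0, 77.1 and 84.4 CPM. In Eif2ak2 control 1 was the lowest library, and the groups overlap.

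The dynamin-like GTPases include the MX proteins, which trap viral nucleocapsids, and the guanylate-binding proteins, which are strongly induced by interferon gamma. Gbp2 (chr3:142620602-142638008) was at 157 and 221 CPM in control libraries and at 144, 95.8, 175 and 157 CPM in Htr2b_cKO libraries. Gbp2 had a log2 fold change of -0.40 (SE 0.24, edgeR adjusted p = 0.638), and the controls differed from each other by more than the group means did. The value was -0.63 without control 1, -0.13 without control 2 and -0.25 without Htr2b_cKO 2. Gbp3 was at 79.2 and 124 against 89.7, 65.9, 134 and 97.8 CPM, and Gbp7 at 37.9 and 53.9 against 46.7, 38.8, 62.0 and 69.6 CPM. Mx1 was low, at 6.11 and 4.52 against 3.06, 3.43, 10.1 and 6.03 CPM. Mx2, annotated as a polymorphic pseudogene, was at 11.7 and 14.2 against 7.30, 6.57, 20.6 and 13.8 CPM. Both Mx genes were highest in the library labelled Htr2b_cKO 3 and lowest in Htr2b_cKO 1 or 2, and their transcripts share a stretch of 94.8% identity.

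ISG15 is a ubiquitin-like protein that is attached to other proteins, and USP18 removes it and dampens receptor signalling. Isg15 (chr4:156199424-156200818) was at 141 and 122 CPM in control libraries and at 60.8, 78.6, 142 and 105 CPM in Htr2b_cKO libraries. Usp18 (chr6:121245906-121270917) was at 39.0 and 31.7 against 18.7, 18.5, 33.7 and 27.7 CPM. In both genes Htr2b_cKO 1 and 2 are the lowest and the library labelled Htr2b_cKO 3 lies at the level of the controls. The log2 fold change was -0.44 for Isg15 (SE 0.31, edgeR adjusted p = 0.684) and -0.52 for Usp18 (SE 0.26, edgeR adjusted p = 0.578). For Isg15 it was -0.27 without Htr2b_cKO 1 and -0.68 when the library labelled Htr2b_cKO 3 was left out. Part of Isg15 is 95.2% identical to the gene model AC151275.1 over 482 bases.

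PARP9 and DTX3L form a complex that ubiquitinates histones and viral proteins, PARP14 is an ADP-ribosyltransferase, and TRIM30A is a mouse TRIM protein that restrains inflammatory signalling. These genes were the nearest to the controls, with a median log2 fold change of -0.04. Parp14 (chr16:35832874-35871544) was at 71.5 and 85.8 CPM in control libraries and at 71.9, 58.6, 85.8 and 92.4 CPM in Htr2b_cKO libraries, a log2 fold change of -0.03 (SE 0.19, 2 SE from -0.42 to 0.36, edgeR adjusted p = 0.976) whose sign changed on leaving out control 2 (0.12), Htr2b_cKO 1 (0.01) or Htr2b_cKO 2 (0.09). Parp9 was at 52.9 and 68.3 against 54.0, 51.5, 61.7 and 65 CPM, and Dtx3l at 41.6 and 51.7 against 35.4, 29.1, 43.8 and 52.7 CPM. Parp9 (chr16:35938470-35972605, plus strand) and Dtx3l (chr16:35926511-35939151, minus strand) overlap, and the labels used here do not say how strand was used in counting. Trim30a (chr7:104409025-104465193) was at 40.2 and 57.6 against 59.9, 52.5, 64.0 and 59.8 CPM. Trim30a had a log2 fold change of 0.28 (SE 0.17, edgeR adjusted p = 0.643). Control 1 was the lowest library, and the value was 0.03 without control 1 and 0.56 without control 2.

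All 8 other antiviral effectors had a fold change below 0, with a median of -0.28. BST2, or tetherin, holds budding virus at the cell surface. Its gene (chr8:71534255-71537456), the most abundant of these by CPM, was at 217 and 194 CPM in control libraries and at 128, 162, 234 and 149 CPM in Htr2b_cKO libraries, a log2 fold change of -0.29 (SE 0.23, edgeR adjusted p = 0.706) that was -0.18 without Htr2b_cKO 1 and -0.48 when the library labelled Htr2b_cKO 3 was left out. Ifi35 (chr11:101448407-101458698), whose product binds the factor NMI, was at 49.6 CPM in both controls and at 32.5, 38.6, 51.8 and 40.8 CPM, a log2 fold change of -0.28 (SE 0.18, edgeR adjusted p = 0.663) that was -0.18 without Htr2b_cKO 1. In both genes the library labelled Htr2b_cKO 3 was above the controls and the other Htr2b_cKO libraries were below them.

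Rsad2, the gene of viperin, and its neighbour Cmpk2, a mitochondrial nucleotide kinase, lie together on chromosome 12. Rsad2 was at 46.7 and 34.0 against 25.9, 26.3, 51.3 and 32.9 CPM, and Cmpk2 at 26.3 and 20.1 against 15, 15.2, 31.3 and 15.5 CPM. Xaf1, a promoter of apoptosis, was at 32.7 and 30.9 against 20.8, 20.0, 33.1 and 28.4 CPM. Rtp4 was at 54.5 and 50.8 against 28.3, 32.2, 62.0 and 40.7 CPM, and Ifi44 at 27.4 and 41.9 against 25.6, 20.0, 44.3 and 46.8 CPM. Ifi27l2a spread most widely in CPM, from 70.2 CPM in Htr2b_cKO 1 to 247 CPM in the library labelled Htr2b_cKO 3, with 112 and 83.8 CPM in the other 2 and 191 and 134 CPM in control libraries. Of these 6 genes, all but Ifi44 were highest in the library labelled Htr2b_cKO 3, and Htr2b_cKO 1 or 2 was the lowest for each.

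Per length, as mean CPM over all libraries per 1000 bases of exon, Ifi27l2a was the highest at 302, followed by Bst2 at 200, Isg15 at 143 and Irf7 at 67.7. Mx1 was the lowest at 1.46, and Oas3 was at 2.67.

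The signals upstream of these genes were scarcely measured. Of 11 interferon ligand genes, 1 passed the filter on low counts. That gene, Ifnz, had 0 and 14 counts in control libraries and 0, 13, 11 and 1 in Htr2b_cKO libraries, with a log2 fold change of -0.14 (edgeR adjusted p = 0.982) that changes sign with the setting. Ifnb1, the interferon beta gene, had 3 and 0 against 0, 4, 0 and 0 counts, and Ifng had 8 and 3 against 0, 0, 0 and 1. Ifna2 had 7 counts in the library labelled Htr2b_cKO 3 and 0 in the other 5. Apart from Ifnz the ligand genes were not tested.

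The receptor genes were present in every library. Ifnar1 was at 108 and 126 CPM in control libraries and at 99.6, 99.6, 108 and 108 CPM in Htr2b_cKO libraries, and Ifnar2 at 95.9 and 119 against 86.5, 85.3, 83.1 and 113 CPM. Ifngr2, a chain of the interferon gamma receptor, was at 63.2 and 78.9 against 50.5, 60.7, 68.6 and 49.3 CPM, with a log2 fold change of -0.31 (SE 0.17, edgeR adjusted p = 0.618) that was -0.14 without control 2 and -0.11 with the authors' factors. Of the 11 genes of receptors and JAK-STAT signalling, 8 had a fold change below 0 and 0 were called.

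Of all 97 other pathway genes tested, 0 were called by edgeR (lowest adjusted p = 0.326). At an unadjusted edgeR p under 0.05, 12 were lower and 3 higher, where 2.99% of all genes tested were lower and 6.6% higher. Each Htr2b_cKO library lay below both controls for 22 of the 97 and above both for 4. The shares over all genes tested were 8.98% and 10.6%. Fold changes were below 0 for 31 of 39 further type I interferon genes, with a median of -0.22, and for 15 of 17 interferon gamma genes, with a median of -0.36. The 17 genes of sensing and relay, with 10 below 0 and a median of -0.06, and the 13 negative regulators, with 6 below 0 and a median of 0.03, were closer to all genes tested. Ciita, the switch gene of MHC class II, was at 3.10 and 1.84 CPM in control libraries and at 0.677, 0.663, 1.06 and 0.654 CPM in Htr2b_cKO libraries, a log2 fold change of -1.72 (SE 0.42, edgeR adjusted p = 0.326). Each Htr2b_cKO library is below both controls, as in the summed B and plasma cell markers given above, whose part in Ciita was not tested.

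Irf2, which encodes a repressor of IRF1 targets, was at 31.0 and 28.9 against 20.7, 21.4, 25.8 and 24.2 CPM (log2 fold change -0.38, SE 0.15, edgeR adjusted p = 0.478). Tbk1, the kinase that activates IRF3, was at 17.0 and 20.9 against 28.7, 29.0, 21.8 and 26.5 CPM (log2 fold change 0.48, SE 0.18, edgeR adjusted p = 0.456). Slfn9, of the Schlafen family, was at 18.8 and 25.1 against 33.5, 42.6, 29.0 and 46.0 CPM (log2 fold change 0.78, SE 0.23, edgeR adjusted p = 0.385). In Irf2 each Htr2b_cKO library is below both controls, as in 8.98% of all genes tested. In Tbk1 and Slfn9 each is above both controls, as in 10.6% of all genes tested.

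Of the 16 genes with an ISRE match in their windows, 12 had a fold change below 0, with a median of -0.21, and of the 11 without one 9 did, with a median of -0.27. The difference between these sets was not tested. Base composition also differed with the sign of the fold change. The 7 genes above 0 had a median GC content of 42.8% and the 30 below 0 one of 49.9%, while over all genes tested these were 46.5% and 52.7%. With a correction for GC content and length the median of the listed genes was -0.20, with 31 below 0, and 0 of the 37 had an unadjusted p under 0.05. The corrected log2 fold change was under 0.1 in size for Bst2 (-0.05), Ifi35 (-0.08) and Trim30a (0.01). It was also under 0.1 in size for Oasl1 (-0.03), Ifi27l2a (-0.06), Mx1 (0.07), Mx2 (0.02) and Gbp7 (-0.03). It was 0.22 for Ifit2, -0.20 for Isg15, -0.35 for Oas1a, -0.44 for Irf7, -0.47 for Zbp1 and -0.18 for Parp14.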

How the data were processed

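The deposited table gives estimated counts per Ensembl gene, which the authors left unscaled and, per the file headers, named as a transcript quantifier names its output. The authors also deposited a normalized signal, whose factors differ by gene within a library (SD of the log2 factor 0.128 to 0.193 over 11933 genes), used here only as an alternative offset. DRAGEN, DESeq2 and mm10 are named, per the submitters' processing notes. For the counter, the version, strand setting and annotation were not given in the sources used here. All 42256 identifiers matched GENCODE M21 (mm10).

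Counts were tested with edgeR 4.0.16 (R 4.3.3): TMM, filterByExpr, robust quasi-likelihood F test, two-sided, genotype as the only term, Benjamini-Hochberg over 15840 genes, called at adjusted p under 0.05. The quasi-likelihood setting (legacy = FALSE) was chosen after both settings, the older one with and without robust fitting, had been run, to match an earlier processing of these files; the older setting is among the alternatives. SEs were derived from the F statistic of each gene. Library replicate numbers are names only. Each library was treated as 1 animal, following the design text. The edgeR p-values set the group difference against a spread between these libraries that is estimated in part from all genes. The smallest permutation p over the 15 splits is 0.0667. Alternatives were RLE, no filter, DESeq2 1.42.0, limma 3.58.1 voom, the authors' factors and a GC and length correction. Further alternatives, without that correction, left out each library in turn. Added after seeing the data were the older setting and leaving out a pair of libraries. Fits were tested on simulated data with the library numbers of this design and a lower spread, the same for all genes.

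Members and lists were chosen with earlier results of these data known. Full statistics are given, by role, for the gene of highest mean CPM and that of smallest p, and in each further list for the called genes or the smallest p. Htr2b, Postn, marker sums and correlations were also in that rule. Ifnb1, Ifng, Ifna2, Ifnar1, Ifnar2, the motifs and the 6 genes plotted by library were chosen after values were seen. Postn was at 2309 and 1586 CPM in control and at 1350, 1526, 2312 and 982 CPM in Htr2b_cKO libraries. Transcripts were compared with BLAST 2.17.0.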

Additional observations from a re-analysis of the deposited data

Results flagged for a closer look

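In 57 sets of values from the 4 Htr2b_cKO libraries (the listed genes, further named genes and marker sums), 6 had a highest or lowest library set apart from the others by a gap that, as a share of the whole range, passed Dixon's critical value for 4 samples. Chance flags about 1 in 20 sets of independent values. These sets share the same 4 libraries and many of their genes vary together, so that rate gives no expected number here. In 4 of the 6 the library was the one labelled Htr2b_cKO 3 and its value was the highest of the group: Ifit2 at 57.2 CPM (gap 0.916 of the range), Cmpk2 at 31.3 CPM (0.971), Ciita at 1.06 CPM (0.942) and Htr2b itself at 0.876 CPM (0.864). In the other 2 it was Htr2b_cKO 4, with Ifnar2 at 113 CPM (0.884) and the summed neutrophil markers at 81 CPM (0.858).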

How the results depend on the processing

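No listed gene was called in any of the 15 settings. The median log2 fold change of the list lay below 0 in all of them, from -0.13 without Htr2b_cKO 2 to -0.62 without both the library labelled Htr2b_cKO 3 and Htr2b_cKO 4, an alternative chosen after seeing the data. That last setting keeps the Htr2b_cKO libraries already lowest for these genes, so its size follows from the choice and supports nothing. Across the other settings 24 to 31 genes were below 0. Of all genes tested, 5 were called without a filter, 105 by DESeq2 (85 higher and 20 lower), which made more false calls on simulated data of this design than its threshold allows, 5 without both those libraries, and 1 (without control 1) to 8 (without Htr2b_cKO 4) when 1 library was left out, with 6 without control 2. The older quasi-likelihood setting, also added after seeing the data, called 2. The simulated data had the library numbers of this design, but a spread set below that of the data and shared by all genes. Whether DESeq2 makes as many false calls at the spread of these data was not tested.

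Among the genes given full statistics, leaving out 1 library changed the sign of 3, none of them called. Other listed genes changed sign too, such as Ifi44 (-0.30 to 0.33), Gbp3 (-0.36 to 0.30) and Mx1 (-0.34 to 0.33). Of the 3, the ranges were as follows. Ifit3 ranged from -0.63 to 0.03, Parp14 from -0.15 to 0.12 and Ifnz, with few counts, from -1.36 to 5.73. Ifnz was also at 0.67 with limma voom and at 0.08 with the GC and length correction. The count of listed genes lower at an unadjusted p under 0.05 was 3, but 0 without control 1, control 2 or Htr2b_cKO 1, 1 without Htr2b_cKO 2 or Htr2b_cKO 4, and 16 when the library labelled Htr2b_cKO 3 was left out. Without control 2, 2 listed genes were higher at that level. For the fits that leave out a library, the share of all genes tested at that level is not given. The library labelled Htr2b_cKO 3 was the highest for 19 of the listed genes, so the 16 without it follows in part from the choice. The cause of these changes was not tested. No paired analysis was possible because the replicate numbers are only names. The number of control libraries, 2, and for the ligands the low counts, limit these comparisons.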
